A study of Mus musculus with 12 samples.

Results

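Mouse CD8+ T cells that received an anti-CD3 antibody alone were set directly against the same kind of cells that received the interferon IFN-4a alone. The comparison rests on 6 of the series' 12 arrays, the 3 whose titles name anti-CD3 without interferon and the 3 whose titles name PBS with IFN-4a. For each gene the difference of the 2 group means was taken, on array rows that carry 1 gene symbol. The 3 arrays of PBS-treated cells placed each gene against untreated cells, and the 3 arrays of cells given anti-CD3 together with IFN-4a entered the estimate of the spread, with a few of their values given for reference. All groups were lymphocytes of C57BL/6 spleens, obtained by removing the other cell types rather than by binding CD8, and all were kept for 6 h before total RNA was extracted. The labels name no individual animal, age, antibody clone, dose or second, costimulatory antibody, and they do not say to which class of interferon IFN-4a belongs. Replicates are numbered without a stated culture or animal, so the p-values measure the spread between these arrays, which may be technical.

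The antibody binds CD3, the signalling part of the T cell receptor complex. Receptor signalling runs through the kinases Lck and Zap70 to calcium and NFAT, to MAP kinases and AP-1, and to NF-kappaB, and is known to switch on cytokines, surface receptors and the growth of a resting T cell. Interferons bind receptors that activate JAK kinases and STAT proteins. Type I interferons act mainly through a complex that includes STAT2 and IRF9 and binds the interferon-stimulated response element (ISRE). The gamma-activated site (GAS) is another element found at interferon-responsive genes. The products include antiviral enzymes, ubiquitin-like modifiers and the large GTPases that attack vacuoles holding microbes.

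The deposited table holds logarithms, read here as log2, and every row had been shifted so that its median over the 12 arrays is 0. A value of 0 is therefore a gene's own median, a difference of 1 is a 2-fold difference, and levels cannot be compared between genes. Neither labels nor file name the base; with a natural log the folds would be larger. Arrays carry no read depth, and their number limits the precision. In these bulk RNA samples, fewer cells of a type and less RNA per cell cannot be told apart. A gene was called where the limma adjusted p was under 0.05 over all 22180 genes.

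The labelled cell type was checked on its markers. Stored numbers become coarser as they grow, so the decimal steps of the values can show a level of at least 8 before centring. This level was judged on the 6 arrays with the highest values of a row. It was seen for 5 of 5 CD8 T cell markers (Cd8a, Cd8b1, Cd3e, Cd3d and Cd3g), against 31.1% of all genes. The same was seen for 1 of 9 B cell markers, 2 of 6 CD4 T cell markers (Tnfrsf4 and Ikzf2) and 1 of 8 NK cell markers. It was also seen for 1 of 12 markers of monocytes, macrophages and dendritic cells, 0 of 10 granulocyte markers and 1 of 5 markers of erythroid cells and platelets. The CD3 chains do not set CD8 T cells apart from other T cells, which leaves Cd8a and Cd8b1 for that question. Between the 2 signals Cd8a differed by -0.07 ± 0.05 (SE, adjusted p = 0.352) and Cd3e by 0.03 ± 0.05 (adjusted p = 0.776). Cd8b1, Cd3d and Cd3g were called lower with anti-CD3, with differences of -0.39, -0.40 and -0.24 on the log2 scale.

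Short promoter stretches are shown here to print the response elements of some genes the results turn on. They run 5′ to 3′ on the gene's strand, from the RefSeq annotation of GRCm38.p6, with every match to the searched motifs in capitals. The 4 motifs were the ISRE core (GAAA, any 2 bases, GAAA), the GAS (TTCNNNGAA), the AP-1 site (TGANTCA) and the NF-kappaB site (GGG, any 2 bases, TTTCC), searched on both strands in the 250 bases before each gene's start, with overlapping matches kept. These windows were picked after the matches were known, and each because it holds matches.
Ifit1, higher with IFN-4a, at chr19:34640765-34640833, plus strand, with a pair of ISRE cores: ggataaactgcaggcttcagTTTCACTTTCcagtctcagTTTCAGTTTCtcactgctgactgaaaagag
Rsad2, higher with IFN-4a, at chr12:26456543-26456592, minus strand, with an ISRE core: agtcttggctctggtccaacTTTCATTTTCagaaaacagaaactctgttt
Cxcl10, raised by either signal, at chr5:92349073-92349122, minus strand, with an ISRE core: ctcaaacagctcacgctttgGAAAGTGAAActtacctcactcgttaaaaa
Igtp, at the same value with either signal, at chr11:58199491-58199551, plus strand, with a GAS and an ISRE core: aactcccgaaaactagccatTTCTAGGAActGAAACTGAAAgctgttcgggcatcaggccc
Irgm2, at the same value with either signal, at chr11:58214882-58214942, plus strand, with a GAS and an ISRE core: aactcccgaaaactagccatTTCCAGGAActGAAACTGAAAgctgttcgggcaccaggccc
Gbp7, at the same value with either signal, at chr3:142530210-142530312, plus strand, with a pair of GAS and an ISRE core: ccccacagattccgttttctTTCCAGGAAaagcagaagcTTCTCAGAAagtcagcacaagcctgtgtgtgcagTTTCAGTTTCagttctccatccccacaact
Tnfrsf9, higher with anti-CD3, at chr4:150927936-150927998, plus strand, with an NF-kappaB site and an AP-1 site: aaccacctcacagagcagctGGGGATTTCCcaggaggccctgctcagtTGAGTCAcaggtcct

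An ISRE core was found in 2.98% of all 32851 promoters in the table. It was found in 37 of 213 promoters (17.4%) of genes called at least 2-fold higher with IFN-4a and in 11 of 658 (1.67%) of genes called at least 2-fold higher with anti-CD3. The table held 8 promoters of 7 of the 14 guanylate-binding protein and immunity-related GTPase genes; 7 of these 8 held an ISRE core and 4 held a GAS. Gbp4, Gbp6, Gbp8, Gbp9, Gbp10, Gbp11 and Iigp1 were not searched. The GAS stood in 7.02% of all promoters, and its share was alike on both sides, with 18 of 213 (8.45%) for IFN-4a and 55 of 658 (8.36%) for anti-CD3. The windows of Igtp and Irgm2, neighbours on chromosome 11, were identical at 59 of 61 bases. The promoters of Ccl3, Xcl1, Rgs16, Sema7a, Tnf, Nr4a2 and Slamf1, among the genes most in excess with anti-CD3, held none of the 4 motifs in these 250 bases. Tnfrsf9 has a pair of starts in the table, and only the window of the printed start held a match. AP-1 sites stood in 6.75% of all promoters, in 20 of 213 (9.39%) on the IFN-4a side and in 28 of 658 (4.26%) on the anti-CD3 side. NF-kappaB sites stood in 1.41% of all promoters, in 2 of 213 (0.939%) on the IFN-4a side and in 12 of 658 (1.82%) on the anti-CD3 side. A match is a description of letters, not evidence of binding.

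The 2 signals left the cells with different RNA for about as many genes in each direction, but with larger differences on the anti-CD3 side. Of 22180 genes, 3257 (14.7%) were called higher with anti-CD3 and 3659 (16.5%) higher with IFN-4a, together 31.2% of the genes tested. These shares are to be read beside every count of list members below. At least 2-fold, 689 genes (3.11%) were higher with anti-CD3 and 199 (0.897%) higher with IFN-4a. At least 8-fold, the counts were 22 and 17. The median difference among called genes was 0.55 on the anti-CD3 side and -0.35 on the IFN-4a side, and -0.05 over all genes. With quantile normalization the imbalance at 2-fold was smaller, with 482 genes higher with anti-CD3 and 354 higher with IFN-4a.

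**Figure D1:**
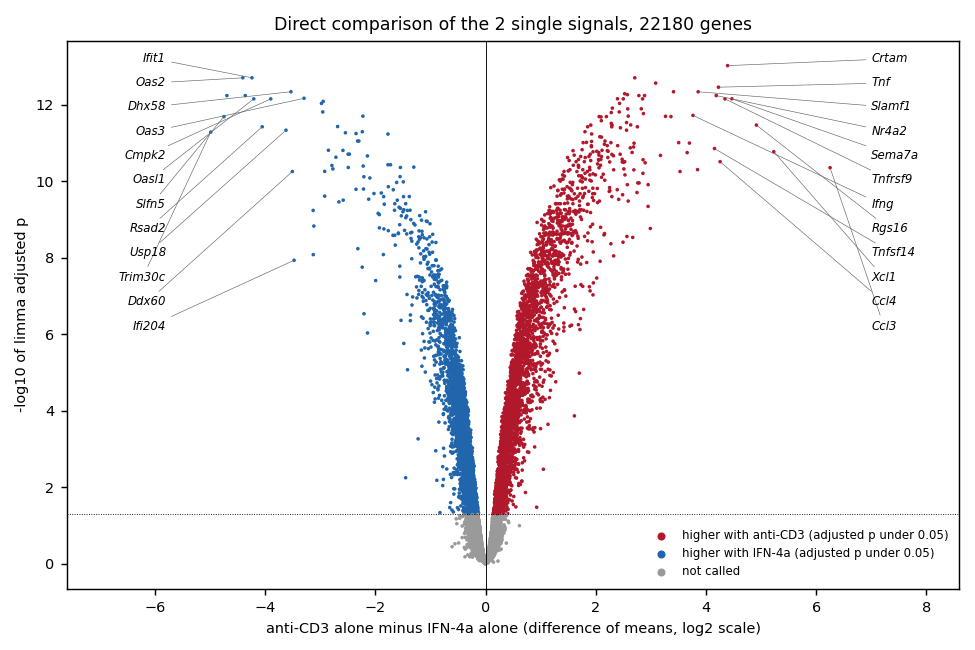
Each point is 1 of 22180 genes, placed by the difference of means, anti-CD3 alone minus IFN-4a alone (horizontal, log2 scale), and by -log10 of the limma adjusted p (vertical). Red points were called higher with anti-CD3, blue points higher with IFN-4a, grey points were not called, and the 12 named genes of each side reach 6.25 (Ccl3) on the right and -4.99 (Trim30c) on the left.

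Against PBS the signals differed in reach. Anti-CD3 alone raised 3052 genes (13.8%) and lowered 3996 (18%), whereas IFN-4a alone raised 942 (4.25%) and lowered 1856 (8.37%). At least 2-fold, anti-CD3 raised 563 genes (2.54%) and lowered 140 (0.631%), and IFN-4a raised 176 (0.794%). The IFN-4a count is less settled, since its 2798 calls fell to 1753 without replicate 2 of the IFN-4a group. Both comparisons use the same PBS arrays, and each shares its treated arrays with the direct comparison, so their values below are given side by side as descriptions. Of the 176 genes raised at least 2-fold by IFN-4a, 148 were called higher with IFN-4a directly, 14 higher with anti-CD3 and 14 in neither direction. Against PBS, anti-CD3 also raised 110 of these 176 by some amount, lowered 13 and left 53 not called. Of the 563 raised at least 2-fold by anti-CD3, 528 were called higher with anti-CD3, 24 higher with IFN-4a and 11 in neither direction. Against PBS, IFN-4a raised 88 of these 563, lowered 165 and left 310 not called.

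The genes furthest on the IFN-4a side were antiviral effectors that anti-CD3 alone moved far less. All 15 measured genes of the list of Ifit, Oas and other RNA-directed effectors were called higher with IFN-4a, with a median difference of -2.72. Ifit1, which binds viral RNA ends, stood at 2.29, 2.30 and 2.18 on the IFN-4a arrays and at -2.16, -1.87 and -1.93 on the anti-CD3 arrays, with PBS between -2.98 and -2.84. The groups did not overlap, and the direct difference was -4.24 ± 0.07 (SE, n = 3 and 3, adjusted p = 1.98e-13), or 18.9-fold. Oas2, which makes the messenger that activates RNase L, stood at 2.39, 2.34 and 2.32 with IFN-4a and at -2.12, -2.09 and -1.98 with anti-CD3. Its direct difference was -4.41 ± 0.08 (adjusted p = 1.98e-13). Members of the list reached down to a difference of -0.48 for Ifit3. Array probes can bind near-identical copies, so values within the Ifit, Oas, Schlafen, Trim30 and Gbp families are uncertain as to member.

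Anti-CD3 was not without effect on these effectors. It raised 8 of the 15 and lowered 2 against PBS, and IFN-4a raised 14. Ifit1 rose by 0.91 with anti-CD3 and by 5.16 with IFN-4a, and Oasl2, an Oas-like protein, rose by 2.21 and 5.19. Oas3 rose by 0.66 and 3.95. Oasl1 rose by 4.34 with IFN-4a, and its difference from PBS with anti-CD3 was 0.13 (adjusted p = 0.347).

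Other antiviral families followed the same side. Of the 14 measured Mx, viperin and membrane restriction factors, 10 were called higher with IFN-4a and 0 higher with anti-CD3, with a median of -1.57. Rsad2, the radical enzyme viperin, stood at 1.94, 1.99 and 1.89 with IFN-4a and at -2.34, -2.11 and -1.89 with anti-CD3, beside -2.24, -2.48 and -2.08 in PBS. Anti-CD3 and PBS thus overlapped, and the direct difference was -4.06 ± 0.11 (adjusted p = 3.78e-12). Cmpk2, a mitochondrial nucleotide kinase that lies next to Rsad2, differed by -3.90. The dynamin-like Mx1 and Mx2 differed by -4.36 and -4.70; RefSeq lists both as transcribed pseudogenes. Not called were Ch25h, Ifitm6, Ifitm1 and Ifitm2, at differences of -0.07, -0.03, 0.17 and 0.25.

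All 17 Schlafen and Trim genes were called higher with IFN-4a, with a median of -1.45 against -0.05 over all genes. Trim30c stood at 2.56, 2.57 and 2.30 with IFN-4a and at -2.77, -2.39 and -2.40 with anti-CD3, the largest difference on this side at -4.99 ± 0.14 (adjusted p = 5.22e-12). Slfn5 differed by -4.75 ± 0.12. Against PBS, IFN-4a raised all 17, while anti-CD3 raised 3 and lowered 1.

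All 6 genes of ISG15 conjugation were higher with IFN-4a, by -0.78 to -3.62. ISG15 is a ubiquitin-like protein joined to targets by Uba7, Ube2l6 and Herc enzymes and removed by Usp18. Isg15 itself stood at 1.55, 1.39 and 1.41 with IFN-4a and at -1.62, -1.39 and -1.40 with anti-CD3. Usp18, which also dampens the interferon receptor, stood at 1.78, 1.77 and 1.82 with IFN-4a and at -2.01, -1.88 and -1.61 with anti-CD3. It rose from PBS with either signal, by 1.14 with anti-CD3 and by 4.76 with IFN-4a.

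Among nucleic acid sensors and PYHIN genes, 12 of 16 were called higher with IFN-4a and 0 higher with anti-CD3. The RNA helicases Dhx58 and Ddx60 differed by -3.53 and -3.51, and Ifih1, the sensor MDA5, by -2.96. Ifi204 stood at 2.42, 2.13 and 1.27 with IFN-4a, a wider spread than in the other named genes of this side, and at -1.56, -1.54 and -1.52 with anti-CD3. The adaptor Mavs and the DNA sensor Cgas were not called, at 0.14 and 0.17. Of 13 PARP genes, 9 were higher with IFN-4a and 1, Parp1, higher with anti-CD3 (difference 0.24). Parp12, Parp9 and Parp14 led, at -2.59, -1.43 and -1.39.

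**Figure D2:**
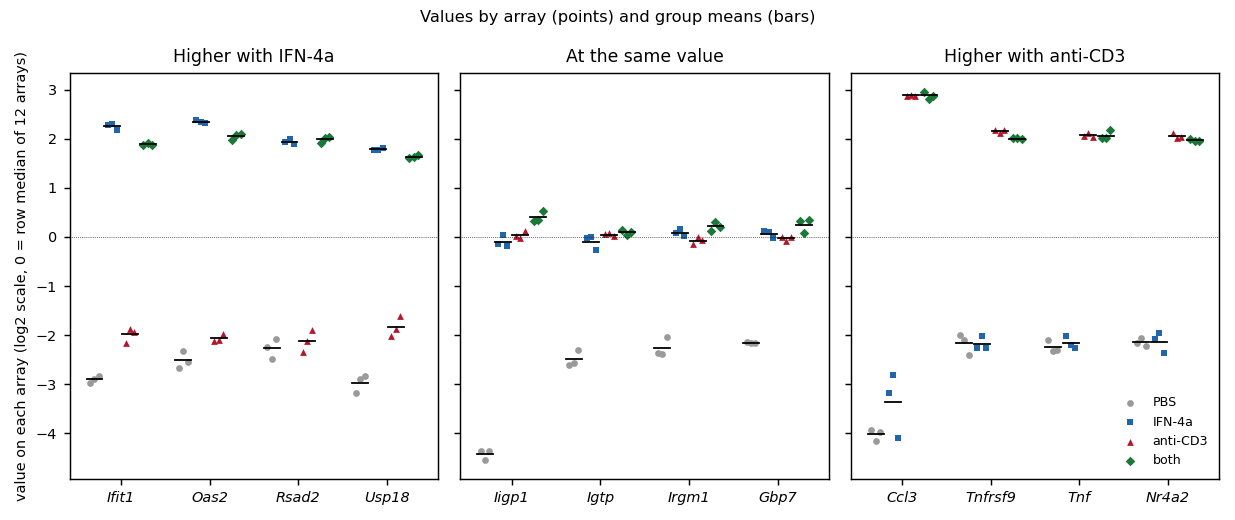
Values on each of the 12 arrays (points; vertical axis log2 scale, 0 is the gene's median) with group means (bars) for 4 genes higher with IFN-4a, 4 at the same value and 4 higher with anti-CD3. Usp18 and Tnfrsf9 separate the single signals in opposite senses, whereas Iigp1 lies between -0.19 and 0.12 with either and at or below -4.35 in PBS.

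A further set of genes reached the same value with either signal. Of the 50 genes that moved at least 2-fold from PBS in the same direction with both, 49 were raised and 1, the small nucleolar RNA Snora44, was lowered. A gene was said to reach the same value where the 95% interval of the direct difference also lay within -0.5 to 0.5. This held for 14 of the 50 genes, and the interval alone lay within that margin for 17457 of all genes (78.7%), most of which neither signal moved 2-fold. Of the 50 genes, 24 were called higher with IFN-4a, 14 higher with anti-CD3 and 12 in neither direction. Of those 12, 9 lay within the margin; the other 3 (Il12rb2, Gm12185 and Snora44) had wider intervals. Just inside the margin were Pnpt1 and Ccnd2, whose intervals reached -0.40 and 0.43, and just outside were Gbp3 and Gbp5, at -0.54 and 0.54.

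The leading genes at the same value were GTPases of host defence. Immunity-related GTPases and guanylate-binding proteins load onto the vacuoles of intracellular microbes, and interferons of both type I and type II are known to induce them. Iigp1 stood at 0.02, -0.02 and 0.12 with anti-CD3, at -0.15, 0.03 and -0.19 with IFN-4a and at -4.35, -4.55 and -4.36 in PBS. It rose 22.1-fold with anti-CD3 and 20-fold with IFN-4a, and the direct difference was 0.14 (95% interval -0.03 to 0.32). Igtp stood at 0.06, 0.08 and 0.01 with anti-CD3, at -0.03, -0.01 and -0.26 with IFN-4a and at -2.61, -2.56 and -2.30 in PBS. Irgm1 rose by 2.19 and 2.35, Gbp7 by 2.12 and 2.22, Gbp10 by 2.80 and 3.01, and Irgm2 by 1.99 and 2.22, with anti-CD3 and IFN-4a respectively. In Irgm2 the direct difference of -0.23 was called (adjusted p = 0.00956) although its interval lay within the margin; the same was true of Nampt, B4galt5, Ccnd2 and Pnpt1. The calls of Nampt and B4galt5 were lost without any of 4 arrays each, with adjusted p of 0.0591 to 0.0978.

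Over the whole GTPase list, 13 of 14 genes were raised by anti-CD3 and 13 of 14 by IFN-4a, with medians of 2.16 and 2.11 above PBS. Directly, 4 were higher with anti-CD3, 3 higher with IFN-4a and 7 were not called, and the median difference was -0.04, beside -0.05 over all genes. The list was thus split rather than uniform. Gbp11 and Gbp8 were higher with anti-CD3, by 1.08 ± 0.15 and 0.93 ± 0.07, and Gbp9 higher with IFN-4a, by -0.94 ± 0.06. Gbp4 was higher with anti-CD3 by 0.49. Gbp5 (0.34, adjusted p = 0.0154) and Gbp3 (-0.34, adjusted p = 0.0107) lost their calls when 1 array was left out: Gbp5 without replicate 3 of IFN-4a (adjusted p = 0.0584) or replicate 2 of anti-CD3 (0.0519), and Gbp3 without replicate 1 (0.0502) or replicate 2 (0.0569) of IFN-4a. Gbp2b was raised by neither signal, at 0.21 and 0.20 above PBS.

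The remaining genes at the same value had other roles. Nampt, the rate-limiting enzyme of NAD salvage, rose by 1.76 with anti-CD3 and by 1.99 with IFN-4a. Casp4, the inflammatory caspase also called caspase-11, rose by 1.69 and 1.59, and Ccnd2, cyclin D2, by 1.78 and 1.47. Map3k8, a MAP kinase kinase kinase, rose by 1.07 and 1.02 with a direct difference of 0.05, and Pnpt1, a mitochondrial exoribonuclease, by 1.0 and 1.27. Membership turned on the 2-fold threshold for the smallest changes, and Ccnd2, Map3k8, Naa20, Pmepa1 and Pnpt1 left the set under quantile normalization. Pnpt1 also left it without replicate 1 of PBS or replicate 2 of anti-CD3, and Map3k8 without replicate 2 of PBS.

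**Figure D3:**
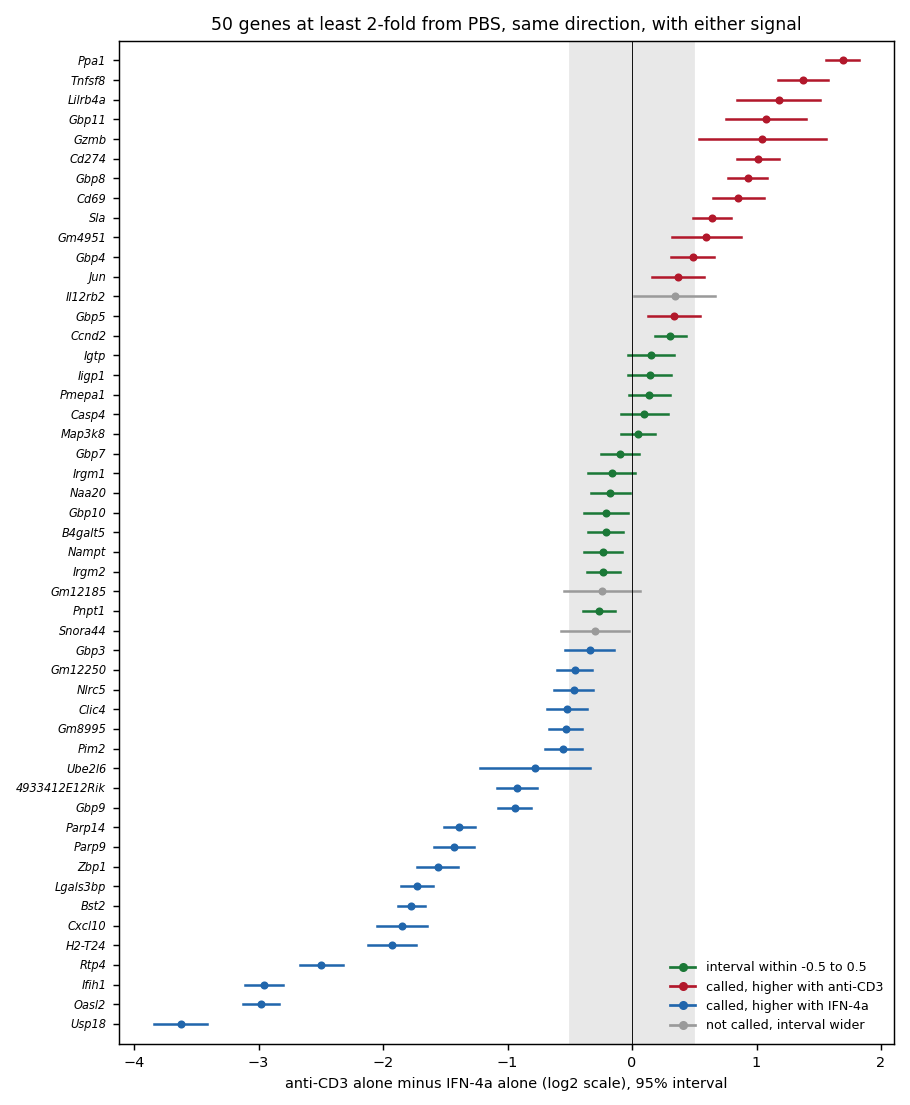
The direct difference, anti-CD3 alone minus IFN-4a alone (log2 scale), with its 95% interval for the 50 genes that moved at least 2-fold from PBS in the same direction with both. The shaded band is -0.5 to 0.5; 14 genes in green lie inside it, and the others run from Usp18 at -3.62 to Ppa1 at 1.69.

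Some genes rose strongly with either signal and still differed. Cxcl10, a chemokine that draws CXCR3-bearing cells, stood at 1.04, 1.05 and 0.77 with IFN-4a, at -0.86, -0.77 and -1.06 with anti-CD3 and at -4.36, -4.23 and -4.26 in PBS. It thus rose 37.7-fold and 10.5-fold, with a direct difference of -1.85 ± 0.09 (adjusted p = 1.77e-09). Cd274, which encodes PD-L1, stood at 0.55, 0.48 and 0.39 with anti-CD3 and at -0.56, -0.39 and -0.68 with IFN-4a. It rose by 3.27 and 2.25, and was higher with anti-CD3 by 1.01 ± 0.08. The early activation marker Cd69 rose by 2.02 with anti-CD3 and by 1.16 with IFN-4a, and the AP-1 gene Jun by 1.37 and 1.0. Gzmb, the effector protease granzyme B, rose by 2.37 and 1.33; its anti-CD3 arrays, at 1.14, 0.52 and 0.29, were spread more widely than those of the genes above.

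On the anti-CD3 side the 2 largest differences were in the chemokines Ccl3 and Xcl1. Ccl3, an inflammatory chemokine, stood at 2.88, 2.89 and 2.88 with anti-CD3, at -3.17, -2.82 and -4.10 with IFN-4a and at -3.94, -4.15 and -3.98 in PBS. The direct difference was 6.25 ± 0.22 (adjusted p = 4.44e-11), or 76.2-fold. Xcl1, which draws cross-presenting dendritic cells, differed by 5.23 ± 0.16, and Ccl4, the partner of Ccl3, by 4.26 ± 0.14. In all 3 the IFN-4a arrays were more scattered than the anti-CD3 arrays. Of the 15 chemokines, 6 were higher with anti-CD3, 3 higher with IFN-4a (Cxcl10, Ccl5 and Ccl7) and 6 not called. From PBS, Ccl5 lay at -0.86 with anti-CD3 and at -0.05 with IFN-4a, and Ccl7 at 0.02 and 0.35.

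Among 24 secreted cytokines, 9 were higher with anti-CD3 and 4 higher with IFN-4a, beside 14.7% and 16.5% of all genes. The median was 0.06. Tnf stood at 2.06, 2.11 and 2.04 with anti-CD3 and at -2.01, -2.20 and -2.27 with IFN-4a, where PBS was at -2.09, -2.32 and -2.31. Its direct difference was 4.23 ± 0.08 (adjusted p = 3.49e-13). Ifng, the type II interferon, stood at 1.80, 1.92 and 2.04 with anti-CD3 and at -1.94, -1.80 and -1.80 with IFN-4a, a difference of 3.76 ± 0.09. With both agents together Ifng was at 3.05, 2.95 and 3.30, above either alone. Il2, the T cell growth factor, and Lta, lymphotoxin alpha, each differed by 2.49, and Il3 by 1.27. The 4 on the other side, Il16, Il27, Ltb and Il5, were higher with IFN-4a by -0.59, -0.37, -0.36 and -0.15. From PBS they lay, in that order, at -0.01, 0.31, 0.00 and 0.09 with IFN-4a. With anti-CD3 they lay at -0.60, -0.06, -0.36 and -0.06.

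Of 23 TNF superfamily ligands and costimulatory receptors, 14 were higher with anti-CD3 and 2 higher with IFN-4a (median 0.59). Tnfrsf9, the costimulatory receptor 4-1BB, stood at 2.17, 2.12 and 2.18 with anti-CD3, at -2.27, -2.02 and -2.27 with IFN-4a and at -1.99, -2.09 and -2.40 in PBS. Its difference was 4.34 ± 0.10 (adjusted p = 7.06e-13). Tnfsf14, known as LIGHT, differed by 4.15. The exception of size was Tnfsf10, the death ligand TRAIL, higher with IFN-4a by -1.43; it rose by 1.68 with IFN-4a and by 0.25 with anti-CD3.

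Inhibitory receptors and ligands leaned the same way, with 9 of 15 higher with anti-CD3 and 3 higher with IFN-4a (median 0.52). Cd160 differed by 3.53, Pdcd1, which encodes PD-1, by 2.78, and Tigit by 1.53. Lgals9, galectin-9, was higher with IFN-4a by -1.25 and Ctla4 by -0.48. Ctla4 lay at -0.79 from PBS with anti-CD3 and at -0.31 with IFN-4a. Other surface molecules among the 12 largest differences were Crtam, an adhesion receptor of activated T and NK cells (4.39 ± 0.07), the semaphorin Sema7a (4.47 ± 0.10) and the SLAM receptor Slamf1 (3.86 ± 0.08). Crtam fell by 0.61 from PBS with IFN-4a while rising by 3.78 with anti-CD3.

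Cytokine receptors divided. Of 21 measured, 5 were higher with anti-CD3 and 12 higher with IFN-4a, with a median of -0.28. Il2ra, the high-affinity chain of the IL-2 receptor, stood at 1.36, 1.37 and 1.41 with anti-CD3, at -1.32, -1.40 and -1.99 with IFN-4a and at -2.44, -2.58 and -2.61 in PBS. It rose with either, by 3.93 and 0.98, and differed by 2.95 ± 0.13. Il12rb1 and Il15ra differed by 2.30 and 1.63. The receptors higher with IFN-4a included both type I interferon receptor chains, Ifnar1 (-0.64) and Ifnar2 (-0.28), and both chains for interferon gamma, Ifngr1 (-0.51) and Ifngr2 (-0.56). In Ifnar1 anti-CD3 lay 0.64 below PBS, on the log2 scale, whereas IFN-4a left a difference of 0.00. Ifnar2, Ifngr1 and Ifngr2 lay at -0.28, -0.60 and -0.97 from PBS with anti-CD3. With IFN-4a they lay at -0.00, -0.08 and -0.41. The IL-18 receptor chains Il18r1 and Il18rap were higher with IFN-4a by -1.34 and -1.02, and rose from PBS by 0.61 and 0.93 with it.

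Immediate-early transcription factors separated the signals clearly. Of 9 Nr4a and Egr genes, 8 were higher with anti-CD3 and 0 higher with IFN-4a, with a median of 2.86. Nr4a2, an orphan nuclear receptor induced by antigen receptors, stood at 2.11, 2.01 and 2.04 with anti-CD3, at -2.07, -1.96 and -2.37 with IFN-4a and at -2.16, -2.05 and -2.23 in PBS. Nr4a3, Nr4a1 and Egr2 differed by 3.66, 3.50 and 3.09; only Egr4 was not called (0.06). Of 13 AP-1 and related factors, 7 were higher with anti-CD3 and 0 with IFN-4a, led by Fos (1.58) and Atf3 (1.22). Among 13 NF-kappaB genes 7 were higher with anti-CD3, led by Nfkbid (1.92) and Rel (1.17), and 4 higher with IFN-4a, led by the inhibitors Tnip1 (-0.82) and Nfkbie (-0.72). From PBS, Tnip1 lay at -0.69 with anti-CD3 and at 0.12 with IFN-4a, and Nfkbie at -0.21 and 0.51. Of 9 NFAT and calcineurin genes, 4 were higher with anti-CD3 and 2 higher with IFN-4a, the largest being the calcineurin subunits Ppp3cc (1.16) and Ppp3ca (-0.86). Ppp3ca lay at -0.70 from PBS with anti-CD3 and at 0.16 with IFN-4a.

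Several negative regulators of signalling were far higher with anti-CD3, while others lay below PBS with anti-CD3 and were higher with IFN-4a directly. Of 14 MAP kinase phosphatases and Sprouty genes, 7 were at least 2-fold higher with anti-CD3 and 2 (Dusp1 and Dusp7) were higher with IFN-4a. From PBS, Dusp1 and Dusp7 lay at -0.68 and -0.56 with anti-CD3 and at -0.30 and -0.26 with IFN-4a. Spry1, an inhibitor of receptor-driven MAP kinase signalling, differed by 3.70 and Dusp4 by 2.67. Rgs16, which shortens G protein signalling, stood at 2.37, 2.36 and 2.40 with anti-CD3 and at -2.47, -2.56 and -2.58 with IFN-4a, a difference of 4.92 ± 0.13. Of 25 genes of the receptor complex and proximal signalling, 10 were higher with anti-CD3 and 9 higher with IFN-4a, and the median was 0.03. Cd5, which dampens receptor signals, differed by 1.71, and the phosphatase Ptpn6 by 1.17. Higher with IFN-4a were, among others, the adaptor Sla2 (-0.78), Ubash3a (-0.65), Dgka (-0.54), the CD3 chain Cd3d (-0.40) and Cbl (-0.37). From PBS these genes lay, in that order, at -1.18, -0.74, -0.56, -0.64 and -0.43 with anti-CD3. With IFN-4a they lay at -0.40, -0.09, -0.02, -0.24 and -0.07.

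**Figure D4:**
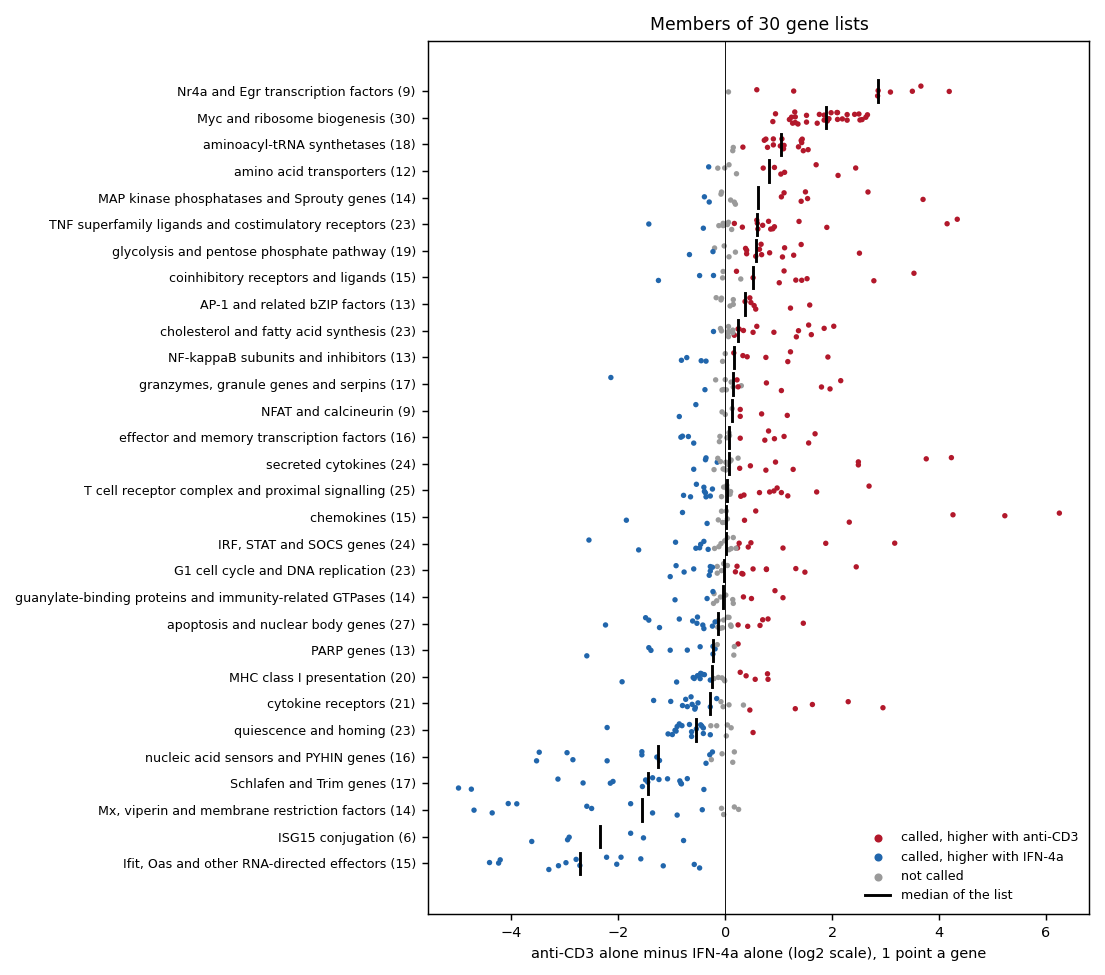
The direct difference, anti-CD3 alone minus IFN-4a alone (log2 scale), of each measured gene in 30 gene lists, 1 point a gene, with list medians as black bars and the number of measured genes in brackets. Medians run from -2.72 (Ifit and Oas effectors) to 2.86 (Nr4a and Egr factors), and the GTPase list lies at -0.04.

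Genes of cell growth were higher with anti-CD3 as a group. All 30 measured genes of the Myc and ribosome biogenesis list were called higher with anti-CD3, 28 of them at least 2-fold, with a median of 1.88. Gnl3, Myc, Polr1b and Rrp12 differed by 2.66, 2.63, 2.56 and 2.52. Against PBS anti-CD3 raised all 30, and IFN-4a lowered 18 and raised 0, with a median of -0.25. Myc, the transcription factor that drives this programme in T cells, lay 0.12 above PBS with IFN-4a and rose by 2.75 with anti-CD3. Of 18 aminoacyl-tRNA synthetases, 16 were higher with anti-CD3 (median 1.05), led by Iars at 1.55 and Rars at 1.46. Wars, the tryptophanyl-tRNA synthetase known to respond to interferon, was among them at 1.09; it lay 1.90 above PBS with anti-CD3 and 0.81 above PBS with IFN-4a.

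Nutrient uptake and metabolism followed in part. Of 12 amino acid transporters, 7 were higher with anti-CD3 and 1, Slc43a3, higher with IFN-4a (median 0.82). Slc7a5, a transporter of large neutral amino acids, and Slc7a1, a cationic amino acid transporter, differed by 2.44 and 2.11. Of 19 genes of glycolysis and the pentose phosphate pathway, 13 were higher with anti-CD3 and 2 higher with IFN-4a, with Hk2, hexokinase 2, at 2.51 and its relative Hk1 at -0.67. Of 23 genes of cholesterol and fatty acid synthesis, 13 were higher with anti-CD3 and 1, Srebf1, higher with IFN-4a. Cyp51, Fasn and Acaca led at 2.03, 1.85 and 1.61. The G1 cell cycle and DNA replication list was mixed, with 10 of 23 higher with anti-CD3 and 8 higher with IFN-4a. Cdkn1a, the inhibitor p21, differed by 2.45 and Cdk6 by 1.49, while the inhibitor Cdkn1b, p27, was higher with IFN-4a by -1.03.

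Most genes of resting and recirculating T cells were higher with IFN-4a, and most of them were lowered from PBS by anti-CD3. Of 23 quiescence and homing genes, 17 were called higher with IFN-4a and 1, Itgal, higher with anti-CD3, with a median of -0.54. Against PBS anti-CD3 lowered 19 of the 23, and IFN-4a lowered 5 and raised 1. St8sia6, a sialyltransferase, differed by -2.21, and Pik3ip1, an inhibitor of PI3 kinase, by -1.07. S1pr1, the receptor by which lymphocytes leave lymphoid organs, differed by -0.92, and fell by 1.28 from PBS with anti-CD3 and by 0.37 with IFN-4a. Ccr7, a lymph node homing receptor, differed by -0.63. Of the 140 genes lowered at least 2-fold by anti-CD3, 138 were called higher with IFN-4a directly and 2 in neither direction. The direct calls share the anti-CD3 arrays by which the 140 were chosen. Against PBS, IFN-4a also lowered 81 of the 140, raised 2 and left 57 not called.

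Cytotoxic and lineage genes were more often higher with anti-CD3. Of 17 granzymes, granule genes and serpins, 7 were higher with anti-CD3 and 2, Gzma and Gzmk, higher with IFN-4a. Over all genes the shares were 14.7% and 16.5%. Gzmk differed by only -0.38 (limma adjusted p = 0.044) and lay 0.05 above PBS with IFN-4a. Prf1, perforin, differed by 1.80, and Serpinb9, the inhibitor of granzyme B, by 1.96. Gzma differed by -2.14 and lay 2.28 above PBS with IFN-4a and 0.14 above it with anti-CD3. Of 16 effector and memory transcription factors, 7 were higher with anti-CD3, led by Tbx21, which encodes T-bet (1.68), and Eomes (1.56), and 4 higher with IFN-4a, among them Zeb1 (-0.83) and Lef1 (-0.80). From PBS, Zeb1 and Lef1 lay at -0.56 and -0.92 with anti-CD3 and at 0.27 and -0.12 with IFN-4a.

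Antigen presentation and interferon regulators were divided. Of 20 MHC class I presentation genes, 10 were higher with IFN-4a and 5 higher with anti-CD3, with a median of -0.25. H2-T24, a non-classical class I gene, differed by -1.93 and the immunoproteasome subunit Psmb10 by -0.91, while the chaperone Canx and the peptidase Erap1 were higher with anti-CD3 by 0.80 and 0.79. Anti-CD3 raised 13 of the 20 from PBS and IFN-4a raised 15. Of 24 IRF, STAT and SOCS genes, 8 were higher with IFN-4a and 7 higher with anti-CD3. Irf7, the amplifier of interferon production, stood at 1.39, 1.33 and 1.34 with IFN-4a and at -1.22, -1.25 and -1.10 with anti-CD3. Irf4, which scales with receptor signal strength, and Irf8 differed by 3.17 and 1.88 in the other direction. Stat2 and Irf9, partners in the complex that binds the ISRE, were higher with IFN-4a by -1.62 and -0.93; anti-CD3 also raised both, by 0.59 and 0.83. Irf1 was higher with anti-CD3 by 0.43, and Socs1 was not called (0.20, adjusted p = 0.0625). Of 27 apoptosis and nuclear body genes, 12 were higher with IFN-4a, led by Daxx (-2.24) and Pml (-1.49), and 6 higher with anti-CD3, led by Bcl2a1a (1.46).

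For 677 genes the signals moved RNA in opposite directions from PBS and the direct difference was called. Of these, 527 were raised by anti-CD3 and lowered by IFN-4a, and 150 were lowered by anti-CD3 and raised by IFN-4a. The smaller of the 2 changes was mostly modest, with a median of 0.30; it was at least 0.5 in 54 genes and at least 1 in 2 genes. Those 2 were Ubash3b and Atp2b4. Ubash3b, a phosphatase that restrains receptor signalling, stood at 1.04, 1.0 and 0.88 with anti-CD3, at -1.83, -1.78 and -1.55 with IFN-4a and at -0.74, -0.75 and -0.53 in PBS. It rose by 1.65 with anti-CD3 and fell by 1.05 with IFN-4a, and the 3 groups did not overlap. Atp2b4, a plasma membrane calcium pump, stood at -1.11, -0.98 and -1.11 with anti-CD3, at 1.25, 1.15 and 1.07 with IFN-4a and at 0.01, 0.05 and -0.17 in PBS.

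The next genes by the smaller change fell into 2 kinds. Epsti1, Fam111a, Dpp4 and Grina fell with anti-CD3 (by 0.93, 0.84, 0.84 and 0.62) and rose with IFN-4a (by 0.96, 1.0, 0.65 and 0.95). Dpp4 encodes CD26, a surface peptidase of T cells, and Fam111a a protease that restricts viruses. Slc25a37, Nat10, Lsm7, Nrp1, Ttc27 and Znhit6 rose with anti-CD3 and fell with IFN-4a. Nat10, an RNA acetyltransferase of the nucleolus, rose by 1.99 and fell by 0.69, and Znhit6, a factor for assembling small nucleolar ribonucleoproteins, rose by 1.47 and fell by 0.61.

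**Figure D5:**
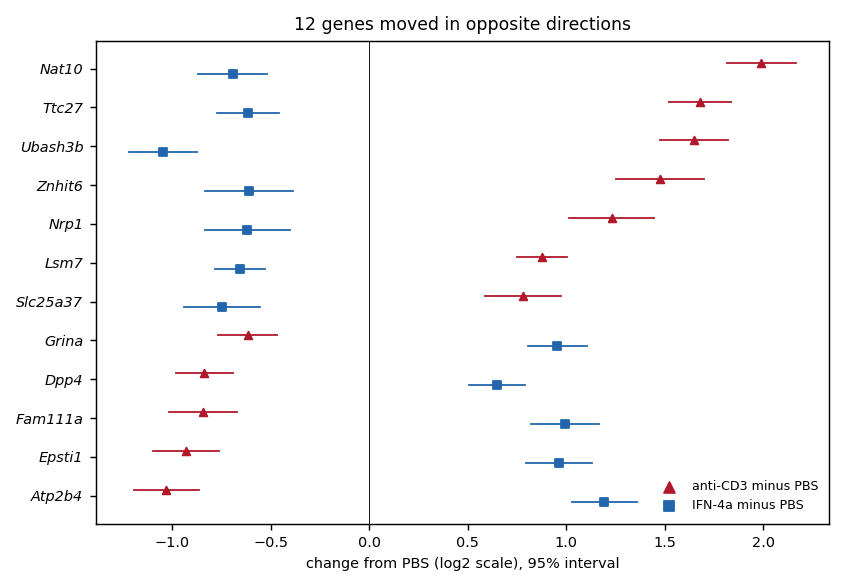
Change from PBS (horizontal, log2 scale, with 95% interval) with anti-CD3 alone (red triangles) and IFN-4a alone (blue squares) for the 12 genes with the largest smaller-of-2 change in opposite directions. No interval crosses 0; Ubash3b lies at 1.65 and -1.05, Atp2b4 at -1.03 and 1.19.

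Of 50 measured markers of other cell types, 14 (28%) were called between the 2 signals, close to the 31.2% over all genes. For B cells 3 of 9 markers were called, all higher with IFN-4a, by at most -0.47 (Cd79b); Cd79a and Cr2 lost their calls without 1 of several arrays. The mean over the B cell list ran from -0.09 to -0.01 on the anti-CD3 arrays and from 0.03 to 0.08 on the IFN-4a arrays. For CD4 T cells 2 of 6 were called (Ikzf2 at -0.59 and Cd40lg at 0.89), and for NK cells 3 of 8 (Gzma at -2.14, Klre1 at -0.30 and Nkg7 at 0.77). The NK list mean ran from -0.14 to -0.04 with anti-CD3 and from 0.09 to 0.26 with IFN-4a. For monocytes, macrophages and dendritic cells 3 of 12 were called (Fcgr3 at -0.61, Mpeg1 at -0.61 and Itgax at 0.60), for granulocytes 2 of 10 (Mpo at -0.40, lost without 1 of several arrays, and Elane at -0.31) and for erythroid cells and platelets 1 of 5 (Itga2b at -0.32). List means on the anti-CD3 and IFN-4a arrays were -0.04 to 0.02 and -0.01 to 0.06 for CD4 T cells, and -0.12 to 0.00 and 0.03 to 0.05 for monocytes, macrophages and dendritic cells. They were -0.10 to 0.00 and -0.01 to 0.09 for granulocytes, and -0.14 to -0.04 and 0.02 to 0.07 for erythroid cells and platelets. The medians of the 6 marker lists were all below 0, from -0.06 to -0.14, beside -0.05 over all genes. Cd40lg, Ikzf2, Gzma and Nkg7 also stand in the lists of T cell genes above, so they do not mark 1 cell type alone. The part of other cells in the differences was not tested.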

How the data were processed

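RNA of mouse splenic CD8+ T cells was measured on 12 single-channel arrays, in 4 groups of 3. Per the labels' protocols, biotin-labelled material was made from total RNA with the WT Plus kit. The deposited values, read here as log2, had been centred by the authors on each row's median over 12 arrays (largest absolute row median 5e-07). No source used here gives the log base, the software or the between-array normalization. The values ran from -4.55 to 3.31, with array medians of -0.0157 to 0.0165.

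Of 33793 rows, 23521 had 1 gene symbol in the platform's table, 1814 several and 8458 none. They gave 22180 genes, 21994 of them found by Entrez identifier in RefSeq (GRCm38.p6) under the same symbol. The rows of a gene were averaged; in 310 of 1082 genes with several rows these pointed both ways, as in 4 of 35 of the named or listed ones.

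limma 3.58.1 in R 4.3.3 fitted 4 group means on all 12 arrays (8 residual and 5.18 prior degrees of freedom), with two-sided moderated tests and Benjamini-Hochberg adjustment over all genes. Errors are limma's standard errors. The fit was tested on simulated data. Deviations of same-numbered arrays correlated at -0.029 to 0.206 over 9 pairs, and those of different-numbered arrays at -0.19 to 0.175. These values do not settle whether equal numbers share an origin. The numbers were not taken as pairs, and a fit with a replicate block is given below. No gene set test was run.

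Named genes were the 12 largest called differences in each direction without overlap, passing over predicted genes, small RNAs, receptor segments and pseudogenes; the 12 genes at the same value and the 12 in opposite directions with the largest smaller change; the 4 largest of each of 36 lists; and check genes. Other genes named were chosen after their values were seen. The members and lists were chosen with earlier results of these data known. Of 643 list entries 578 were measured, 4 under another symbol. Motif searches in the GTPase and same-value genes were added after seeing the data. Alternatives were between-array scaling, the rows of a gene, bright rows, the groups fitted, array weights, robust variances, a replicate block and leaving out each array.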

Additional observations from a re-analysis of the deposited data

How the results depend on the processing

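Counts of the direct comparison held within 1.5 times under the alternatives run, with these exceptions: with only bright rows, which leaves 6901 genes, 2426 were called higher with IFN-4a, and with quantile normalization 354 were at least 2-fold higher with IFN-4a, beside 482 with anti-CD3. The share of calls on the anti-CD3 side was 47.1%, 53.1% with each array centred on its median and 54.3% with quantile normalization. Leaving out 1 array at a time gave 2981 to 3287 genes higher with anti-CD3, 3134 to 3782 higher with IFN-4a, 1753 to 2976 called for IFN-4a against PBS (lowest without its replicate 2), 13 to 16 at the same value and 453 to 703 in opposite directions. The set at the same value held 3 genes with a margin of 0.3, 26 with a margin of 0.75 and 53 with changes from PBS of at least 0.6; under quantile normalization it held 12, of which 9 were shared. The numbers share no stated origin; with a replicate block 3278 and 3734 genes were called in the 2 directions, 15 reached the same value and 689 moved in opposite directions. Of 203 named genes followed over 21 settings, 179 were called; 7 lost and 9 gained a call under at least 1 setting, and 0 called differences reversed. No list median changed sign under either scaling, other than the G1 cell cycle list, which moved from -0.03 to 0.00. The number of arrays limits which small differences can be seen, and centred values hide how far a signal stood above background.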
